A study of Homo sapiens with 82 samples.

Results

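Fatty acid oxidation was followed in HT29 cells through 8 genes, CPT1A, CPT2, ACADVL, ACADM, HADHA, HADHB, ACAA2 and ETFDH, out of 51838 genes in the count tables. The genes were chosen by name as enzymes of the mitochondrial pathway, and each symbol matched 1 row of each table. They were chosen with earlier results of these data known. Shares of members set beside those of all genes are therefore descriptive. All 8 passed the filter on low counts at both time points, with raw counts between 122 and 15800 per library. None of the 8 is specific to ketone bodies, so genes of ketone body metabolism are described after them.

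HT29 is an established line of colorectal adenocarcinoma cells. Cells were exposed to DMSO as vehicle, to the liver X receptor (LXR) agonists GW3965 or T0901317, or to the PPARG agonist rosiglitazone, each drug at 10 µM, and were harvested after 24 or 48 h. All groups came from this single line and were kept, before the drugs, in McCoy's 5A medium without phenol red and with serum stripped by charcoal and dextran. Each of the 8 groups had 4 paired-end RNA-seq libraries (32 in all). Per the study's methods each treatment was done in quadruplicate, but neither they nor the labels say what a replicate was (a separate culture, passage or day), so p-values measure the spread between these libraries, which may be in part technical.

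Total counts were 21044798 to 51332656 per library. Mitochondrially encoded genes took 2.23 to 3.06% of counts at 24 h. At 48 h they took 1.85 to 2.74% with DMSO, 2.80 to 3.27% with GW3965, which lay wholly above DMSO, 2.57 to 3.75% with T0901317 and 2.37 to 2.75% with rosiglitazone. All 8 colon epithelial markers examined, among them EPCAM, KRT8 and KRT18, had counts in all 32 libraries. Their sum, in CPM, that is counts scaled to library size, moved with treatment: at 24 h it was 17496 to 18889 with DMSO and higher in every drug library (18975 to 21360), and at 48 h it was 17417 to 18514 with DMSO, lower with GW3965 (16527 to 17258) and T0901317 (14715 to 16258) and higher with rosiglitazone (18691 to 22303), with no overlap. KRT8 (7108 to 11090 CPM) and KRT18 (5446 to 8344 CPM) made up most of this sum, and single markers did not all move with it. At 48 h 4, 2 and 3 of the 8 markers rose with GW3965, T0901317 and rosiglitazone (edgeR, adjusted p under 0.01). In the same order 0, 2 and 2 fell. Of 10 markers of other cells, PECAM1 had no row and the other 9 summed to 4.13 to 12.2 CPM, with PTPRC, CD3E, DCN, COL3A1, ALB and MYH6 at 0 in most libraries. That sum was 5.73 to 7.64 CPM with DMSO at 48 h and 10.3 to 11.2 with GW3965 and 9.74 to 12.2 with T0901317, carried mainly by COL1A1 and CD14, and the part of these 3 measures in the results was not tested. Replicate 1 of GW3965 at 24 h stood apart from its group in pairwise comparisons of counts, as did, less clearly, replicates 1 and 3 of rosiglitazone and replicate 3 of T0901317 at 48 h. Against DMSO, 4 members rose with GW3965 at 24 h with and without that library. With rosiglitazone at 48 h 5 rose with all libraries, 5 without replicate 1 and 5 without replicate 3, in which case ACADM took the place of HADHA, and with T0901317 at 48 h 5 rose with all libraries and 4 without replicate 3. The libraries responded to their drugs: ABCA1, the cholesterol exporter that LXRs induce, went from 4.65 CPM with DMSO to 114 with GW3965 and 60.9 with T0901317 at 24 h. PLIN2, a lipid droplet coat protein induced by PPARs, went from 4.69 to 32.4 CPM with rosiglitazone. It was not particular to that drug. With GW3965 at 24 h the 5 treatment check genes, PLIN2 and ABCA1 among them, had log2 fold changes of at least 1.22, and 4 of the 5 passed (edgeR, adjusted p under 0.01).

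Long-chain fatty acids are burned in the mitochondrial matrix, but their coenzyme A (CoA) esters cannot cross the inner membrane. CPT1A on the outer membrane moves the acyl chain to carnitine, which is the regulated entry step, and CPT2 on the inner membrane moves it back to CoA. The acyl-CoA dehydrogenases ACADVL and ACADM then oxidize very-long and medium chains, the trifunctional protein of HADHA and HADHB and the thiolase ACAA2 shorten the chain, and ETFDH passes the electrons to the respiratory chain. The colon epithelium burns mainly butyrate made by bacteria, a short chain, whereas CPT1A, CPT2, ACADVL and ACADM serve longer chains. Part of the acetyl-CoA from fatty acids can leave as ketone bodies.

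The stretches before the start sites of 3 loci are shown: those of ACAA2 and CPT1A, the members with the largest fold changes with GW3965 at 48 h, and that of HADHA and HADHB, which share theirs. RefSeq windows on GRCh38.p14, reaching from 250 bases before to 50 after an annotated start, were matched for 7 of the 8 members, and ETFDH was not matched. ACAA2 lies on chromosome 18 and CPT1A on chromosome 11, both on the minus strand, and each is printed 5′ to 3′ on its own strand for the 250 bases before the start. HADHA and HADHB are divergent genes on chromosome 2 whose starts lie 307 bases apart, and the 194 bases that both windows share are printed on the HADHB strand. Capitals mark the 1 motif match found, to the direct repeat AGGTCANAGGTCA with 2 mismatches, a form bound by PPAR and RXR heterodimers.
ACAA2, chr18:49813534-49813783, minus strand: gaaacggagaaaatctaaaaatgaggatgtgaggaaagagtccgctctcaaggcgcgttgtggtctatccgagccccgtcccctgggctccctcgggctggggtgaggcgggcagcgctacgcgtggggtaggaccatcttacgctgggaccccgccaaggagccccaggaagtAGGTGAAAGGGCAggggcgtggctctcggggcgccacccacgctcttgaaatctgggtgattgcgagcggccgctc
CPT1A, chr11:68844278-68844527, minus strand: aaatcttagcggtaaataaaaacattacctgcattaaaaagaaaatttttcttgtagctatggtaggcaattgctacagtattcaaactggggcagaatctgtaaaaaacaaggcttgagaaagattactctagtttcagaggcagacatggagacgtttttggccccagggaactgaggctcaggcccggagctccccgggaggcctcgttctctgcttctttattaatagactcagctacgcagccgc
HADHA and HADHB, chr2:26244689-26244882, plus strand: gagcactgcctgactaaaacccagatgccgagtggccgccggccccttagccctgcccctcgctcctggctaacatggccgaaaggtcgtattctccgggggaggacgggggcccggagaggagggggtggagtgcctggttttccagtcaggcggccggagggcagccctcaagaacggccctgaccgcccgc

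3 motifs were searched on both strands of the 8 windows of the 7 members: the receptor hexamer AGGTCA without mismatch, the direct repeat AGGTCANAGGTCA with 1 base between hexamers, and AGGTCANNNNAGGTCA with 4 bases between them, the last 2 with up to 2 mismatches. The single match was the first repeat in ACAA2, as AGGTGAAAGGGCA with 2 mismatches, whose first base lies 76 bases before the start. Over 35116 RefSeq windows of the same length, 13.8% held the hexamer, 2.97% the 1-base repeat and 2.34% the 4-base repeat. Bases G and C made up 44.4% of the stretch of CPT1A, with 7 CpG dinucleotides, against 63.6% and 20 CpG in that of ACAA2. These letters describe the windows alone, and binding at them was not analysed here. The series holds ChIP-seq of LXRA, LXRB and PPARG, but its peaks, on hg19, were not placed at the members.

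All 24 significant differences of members between a drug and DMSO, out of 48 tested, were increases (edgeR quasi-likelihood test, Benjamini-Hochberg adjusted p under 0.01 over all genes). With GW3965 at 24 h, 4 of 8 members rose, where 1.86% of the 21781 genes tested rose. With T0901317 at 24 h 1 member rose (1.33% of all genes), and with rosiglitazone 5 rose (5.81%). At 48 h 4 rose with GW3965 (16.1% of 22470 genes), 5 with T0901317 (14.0%) and 5 with rosiglitazone (12.3%). Among genes whose average level was at least that of the lowest member, the shares that rose were 2.95, 2.16 and 9.93% at 24 h and 23.7, 19.9 and 21.6% at 48 h, in the same order of drugs.

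No member fell in any of the 6 comparisons in edgeR or in DESeq2, where 0.868, 0.119 and 6.52% of all genes fell at 24 h and 17.5, 16.1 and 13.1% at 48 h in edgeR, and at an unadjusted p under 0.05 only HADHB with T0901317 at 24 h lay lower. For GW3965, T0901317 and rosiglitazone the log2 fold changes of the 8 members had medians of 0.35, 0.13 and 0.45 at 24 h, and of 0.36, 0.33 and 0.29 at 48 h, while that of all genes tested was between -0.02 and 0.01. A fold change of at least 1.5 was reached with GW3965 by CPT1A, CPT2 and ACAA2 at both time points, with rosiglitazone by ACADVL at both, and with T0901317 by CPT2 at 48 h. Of all genes 0.992, 0.689 and 1.81% rose by this much at 24 h and 8.27, 6.99 and 4.79% at 48 h. With every library of the drug above every DMSO library there were 4, 3 and 6 members at 24 h, where 5.05, 5.17 and 13.2% of all genes were, and 4, 5 and 5 at 48 h, where 22.8, 19.6 and 17.4% were. The 3 drugs of a time point share its DMSO libraries.

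**Figure D1:**
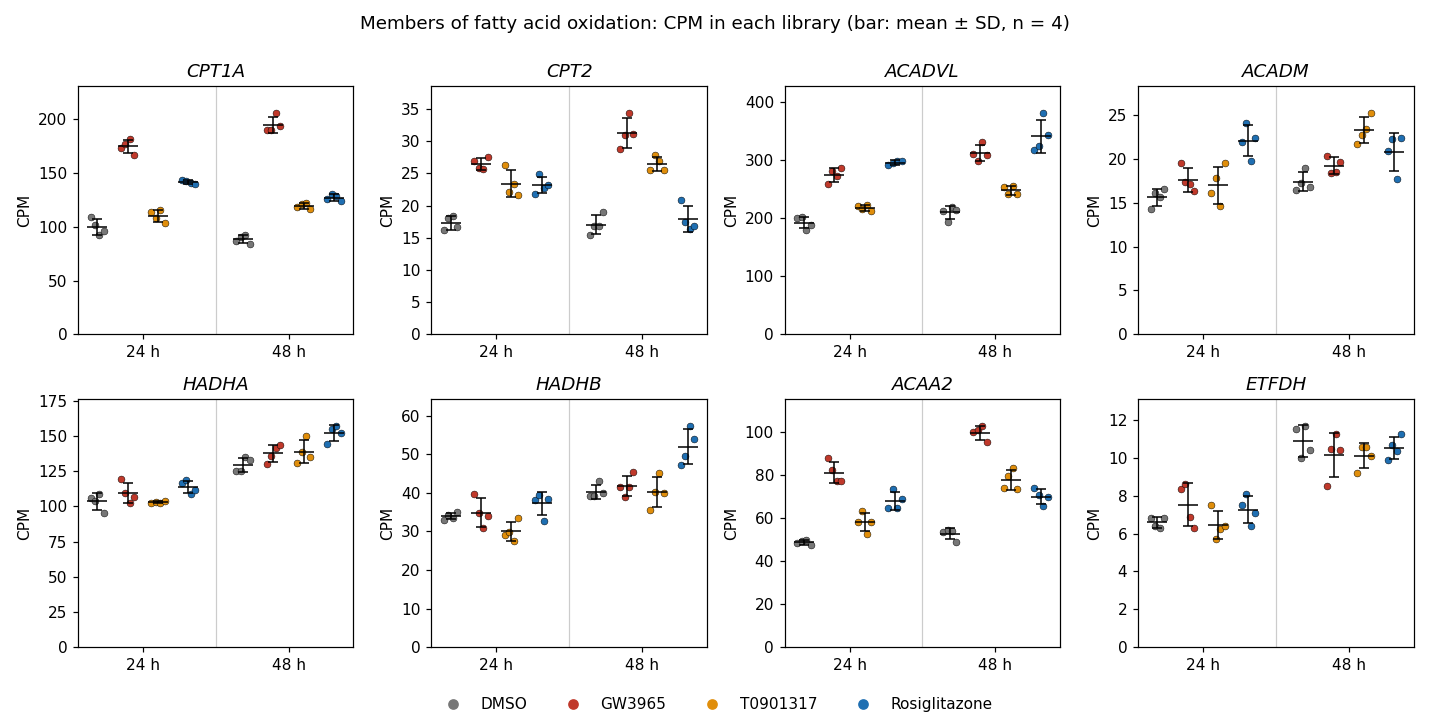
CPM of each member in each library (points), with the group mean and SD (bars, n = 4), by drug and time point. CPT1A was highest with GW3965 at both time points, between 167 and 206 CPM, above every other library, whereas ETFDH overlapped between DMSO and each drug at both time points and was higher at 48 h with DMSO.

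CPT1A, the entry enzyme, had the largest log2 fold change of the 8 with GW3965 at both time points, while CPT2 led with T0901317 and ACADVL with rosiglitazone. In the 4 DMSO libraries at 24 h it stood at 109, 102, 92.7 and 95.9 CPM, and in the 4 GW3965 libraries at 174, 177, 182 and 167. T0901317 libraries had 113, 108, 116 and 103 CPM, and rosiglitazone libraries 144, 143, 141 and 140. GW3965 and rosiglitazone libraries all lay above the DMSO libraries, whereas those of T0901317 overlapped them. The log2 fold change was 0.80 ± 0.058 (SE, n = 4 per group) with GW3965 (adjusted p = 1.4e-08), 0.50 ± 0.058 with rosiglitazone (3.1e-06) and 0.14 ± 0.058 with T0901317 (0.30).

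At 48 h CPT1A had 87.0, 90.8, 92.0 and 84.2 CPM with DMSO and 190, 190, 206 and 194 with GW3965. With T0901317 it had 118, 122, 122 and 116 CPM, and with rosiglitazone 126, 131, 129 and 124. None of the drug groups overlapped DMSO, and their order was T0901317, rosiglitazone and GW3965 with no overlap between neighbours. The log2 fold change was 1.13 ± 0.050 with GW3965 (adjusted p = 2.0e-12), 0.50 ± 0.050 with rosiglitazone (2.0e-07) and 0.43 ± 0.050 with T0901317 (8.8e-07).

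CPT2, which returns the acyl chain to CoA, rose with both LXR agonists at both times and with rosiglitazone at 24 h alone. At 24 h the DMSO libraries had 16.2, 18.0, 18.3 and 16.7 CPM, GW3965 27, 25.8, 25.6 and 27.5, T0901317 26.4, 22.1, 23.3 and 21.7, and rosiglitazone 21.8, 24.9, 22.8 and 23.2. At 48 h they were 15.5, 16.8, 16.8 and 19.0 with DMSO, 28.8, 30.9, 34.4 and 31.1 with GW3965, 25.5, 27.9, 26.9 and 25.6 with T0901317, and 20.8, 17.4, 16.3 and 16.9 with rosiglitazone. Only rosiglitazone at 48 h overlapped its DMSO group. At 24 h GW3965 gave a log2 fold change of 0.61 ± 0.069, T0901317 one of 0.44 ± 0.070 and rosiglitazone one of 0.42 ± 0.069 (adjusted p = 6.0e-06, 0.00066 and 0.00022). By 48 h these were 0.87 ± 0.082, 0.64 ± 0.082 and 0.05 ± 0.084 (5.8e-08, 3.6e-06 and 0.68). The response to rosiglitazone was 0.35 lower at 48 h than at 24 h on the log2 scale, a difference that missed the threshold with all libraries (95% interval -0.57 to -0.13, adjusted p = 0.047) and passed it without replicate 1 of rosiglitazone at 48 h, the highest of its group (-0.44, adjusted p = 0.0051).

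ACADVL opens oxidation of the longest chains, and it rose with GW3965 and rosiglitazone at both times. It had 199, 202, 180 and 188 CPM with DMSO at 24 h, 258, 281, 273 and 286 with GW3965, 221, 215, 223 and 212 with T0901317, and 291, 294, 299 and 299 with rosiglitazone. At 48 h it had 212, 194, 220 and 213 CPM with DMSO, 311, 299, 332 and 308 with GW3965, 254, 242, 254 and 242 with T0901317, and 318, 324, 381 and 342 with rosiglitazone. No drug group overlapped its DMSO group. Rosiglitazone gave a log2 fold change of 0.62 ± 0.052 at 24 h and 0.68 ± 0.061 at 48 h (adjusted p = 5.3e-08 and 5.6e-08), and GW3965 0.51 ± 0.052 and 0.57 ± 0.061 (1.8e-06 and 3.3e-07). T0901317 gave 0.18 ± 0.052 at 24 h (0.080) and 0.24 ± 0.061 at 48 h (0.0034). The last call was lost without DMSO replicate 1, 2 or 4 or T0901317 replicate 1 or 3 of 48 h (adjusted p up to 0.023).

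ACADM, the dehydrogenase of medium chains, rose with rosiglitazone at 24 h and with T0901317 at 48 h. It had 14.3, 16.1, 15.7 and 16.5 CPM with DMSO and 21.9, 24.1, 19.8 and 22.4 with rosiglitazone at 24 h. At 48 h it had 16.5, 17.2, 18.9 and 16.8 CPM with DMSO, 21.7, 22.8, 23.3 and 25.2 with T0901317, and 20.8, 22.2, 17.6 and 22.3 with rosiglitazone. The first 2 drug groups lay above DMSO in every library, and rosiglitazone at 48 h overlapped it through replicate 3. The log2 fold change was 0.49 ± 0.086 (adjusted p = 0.00035), 0.42 ± 0.078 (0.00022) and 0.23 ± 0.079 (0.026), and without that replicate the last was 0.31 (0.0029). With GW3965 it was 0.17 ± 0.086 at 24 h and 0.14 ± 0.079 at 48 h (0.37 and 0.15).

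HADHA and HADHB, the alpha and beta subunits of the trifunctional protein, changed in 1 drug comparison alone, rosiglitazone at 48 h. HADHA had 125, 125, 135 and 133 CPM with DMSO and 145, 155, 157 and 152 with rosiglitazone, and HADHB 39.2, 39.1, 43.0 and 40.0 against 47.2, 49.5, 57.4 and 53.9. Neither gene overlapped between these groups in CPM scaled by TMM. The log2 fold change was 0.21 ± 0.056 for HADHA (adjusted p = 0.0051) and 0.35 ± 0.076 for HADHB (0.0013). The HADHA call was lost without DMSO replicate 1 or 2 or rosiglitazone replicate 2, 3 or 4 (adjusted p up to 0.016). In the other drug comparisons the log2 fold change of these subunits lay between -0.18 and 0.13, and T0901317 at 24 h gave HADHB 29.2, 29.9, 27.5 and 33.5 CPM against 33.0, 34.3, 33.6 and 35.1 with DMSO (-0.18 ± 0.077, adjusted p = 0.35).

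ACAA2, a thiolase of chain shortening, rose with GW3965 and rosiglitazone at both times and with T0901317 at 48 h. It had 48.5, 49.3, 49.7 and 47.3 CPM with DMSO at 24 h, 87.8, 82.5, 77.5 and 77.1 with GW3965, 58.3, 63.2, 52.7 and 58.4 with T0901317, and 64.9, 73.7, 64.9 and 68.9 with rosiglitazone. At 48 h it had 53.7, 54.2, 54.1 and 48.9 CPM with DMSO, 99.8, 101, 103 and 95.2 with GW3965, 74.0, 79.8, 83.2 and 73.4 with T0901317, and 73.8, 70.7, 65.5 and 69.9 with rosiglitazone. Every drug library lay above every DMSO library of its time point. GW3965 gave a log2 fold change of 0.73 ± 0.062 at 24 h, which reached 0.91 ± 0.059 at 48 h (adjusted p = 1.3e-07 and 4.0e-10), and rosiglitazone gave 0.48 ± 0.062 and 0.39 ± 0.059 (1.3e-05 and 3.3e-05). With T0901317 it was 0.26 ± 0.062 at 24 h, which missed the threshold in edgeR (0.028) and passed it in DESeq2 (0.0037), and 0.56 ± 0.058 at 48 h (2.8e-07).

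ETFDH, the step to the respiratory chain, rose with no drug in edgeR or DESeq2 and had an unadjusted p over 0.05 in all 6 comparisons. It had 6.84, 6.42, 6.27 and 6.84 CPM with DMSO at 24 h and 11.5, 9.97, 11.7 and 10.4 at 48 h. The highest 95% interval of its log2 fold changes with a drug was -0.04 to 0.41 (GW3965 at 24 h) and the lowest -0.30 to 0.08 (T0901317 at 48 h), so changes within these bounds were not excluded by these libraries.

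Scaling bears on rosiglitazone at 48 h. Scaling to the total count alone, in place of TMM, moved the median of all genes to -0.19 and the share of calls that were increases from 48.4 to 20.1%. With that scaling 2 members rose instead of 5: HADHA, HADHB and ACAA2 had log2 fold changes of 0.03, 0.16 and 0.21 (adjusted p = 0.70, 0.11 and 0.020). At 24 h the same scaling moved the median to -0.11 and the share from 47.1 to 25.2%, and the same 5 members rose. With GW3965 at 24 h the share of increases went from 68.2 to 55.4%, and the same 4 members rose.

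**Figure D2:**
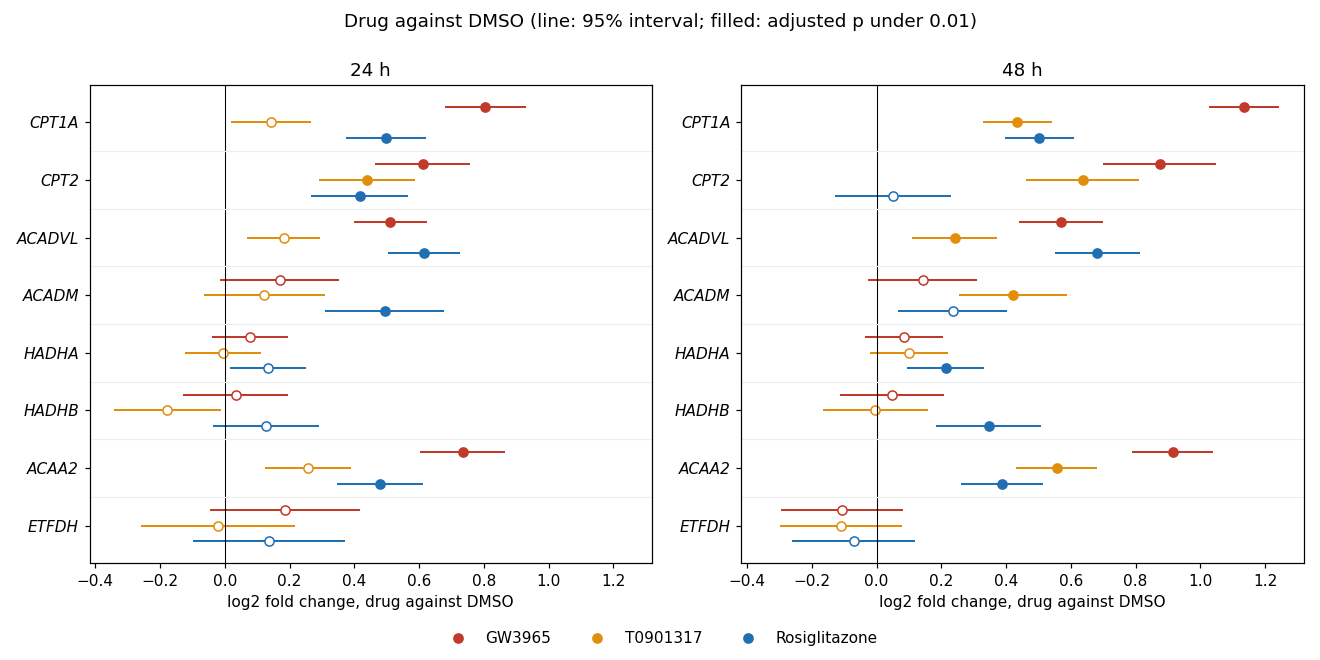
Log2 fold change of each member against DMSO at 24 h (left) and 48 h (right), with 95% intervals, filled where the adjusted p was under 0.01. GW3965 gave the highest values for CPT1A, CPT2 and ACAA2 at both times, up to 1.13, and rosiglitazone for ACADVL, up to 0.68.

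The 3 drugs were compared directly at the same dose and time, over 3 pairs at 2 time points, with p-values adjusted over all genes in each contrast. CPT1A was higher with GW3965 than with T0901317 by 0.66 ± 0.058 at 24 h and 0.70 ± 0.050 at 48 h on the log2 scale (adjusted p = 1.2e-06 and 5.1e-08). ACAA2 was higher by 0.48 ± 0.062 and 0.36 ± 0.058 (0.00014 and 0.00040), and ACADVL by 0.33 ± 0.052 and 0.33 ± 0.061 (0.0013 and 0.0011). These were the 3 of 8 members that differed at each time, where 0.790% of genes differed at 24 h and 8.36% at 48 h. ACADM ran the other way at 48 h, with T0901317 above GW3965 by 0.28, which missed the threshold in edgeR (95% interval of GW3965 minus T0901317 -0.44 to -0.12, adjusted p = 0.017) and passed it in DESeq2 (0.0049). The difference in CPT2 was 0.17 at 24 h (95% interval 0.03 to 0.32, adjusted p = 0.29) and 0.24 at 48 h (0.07 to 0.40, 0.045). The ACADVL call at 24 h was lost with only the 2 groups fitted (0.032), and at 48 h scaling to total counts alone took the share of increases from 60.2 to 31.9%.

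Rosiglitazone and GW3965 differed in more members at 48 h than at 24 h, and also in more of all genes. CPT2 was lower with rosiglitazone by 0.82 ± 0.082, CPT1A by 0.63 ± 0.050 and ACAA2 by 0.53 ± 0.058 on the log2 scale (adjusted p = 5.2e-08, 2.1e-09 and 2.1e-07), and HADHB was higher by 0.30 ± 0.076 (0.0022). These 4 of 8 members stood beside 45.0% of all genes that differed, a share close to that of the members. At 24 h 2 of 8 differed (10.7% of all genes), with CPT1A lower by 0.31 ± 0.057 and ACAA2 lower by 0.26 ± 0.061 (0.00069 and 0.0055). The ACAA2 call at 24 h was lost without DMSO replicate 1, GW3965 replicate 1 or 2, rosiglitazone replicate 1, 3 or 4, or T0901317 replicate 4 (adjusted p up to 0.026) and with only the 2 groups fitted (0.019). ACADVL did not differ beyond its error at either time, with 95% intervals of -0.0047 to 0.21 at 24 h and -0.02 to 0.24 at 48 h. ACADM, at 0.32 ± 0.085 higher with rosiglitazone at 24 h, missed the threshold in edgeR (0.011) and passed it in DESeq2 (0.0021). With scaling to total counts alone at 48 h, the share of increases among all calls went from 49.8 to 35.9%, the median of all genes to -0.16, and HADHB to 0.16 (0.094).

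Rosiglitazone against T0901317 gave 4 members that differed at 24 h (14.1% of all genes) and 3 at 48 h (48.3%). ACADVL was higher with rosiglitazone at both times, by 0.43 ± 0.052 and 0.44 ± 0.061 (adjusted p = 4.8e-06 and 3.6e-06), and HADHB by 0.30 ± 0.077 and 0.35 ± 0.076 (0.0070 and 0.00049). CPT1A and ACADM were higher at 24 h alone, by 0.36 ± 0.058 and 0.37 ± 0.087 (0.00014 and 0.0039). CPT2 did not differ beyond its error at 24 h (95% interval -0.17 to 0.12) and was lower with rosiglitazone by 0.59 ± 0.082 at 48 h (4.0e-06). At 24 h both calls of HADHB and ACADM were lost without rosiglitazone replicate 1, 2 or 4 or T0901317 replicate 1 or 3, and that of HADHB also without T0901317 replicate 2 (adjusted p up to 0.027 for HADHB and 0.018 for ACADM). With scaling to total counts alone they were 0.25 (0.058) and 0.32 (0.029), and the share of increases went from 42.5 to 29.8%. The same scaling at 48 h gave HADHB 0.13 (0.17), put ACAA2 and ACADM past the threshold at -0.39 and -0.40 (adjusted p = 6.1e-05 and 0.00052), took CPT1A from 0.07 (95% interval -0.04 to 0.17) to -0.15 (adjusted p = 0.019), and moved the median of all genes to -0.24 and the share of increases from 49.1 to 30.3%.

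The response of CPT1A grew between 24 and 48 h with both LXR agonists, by 0.33 ± 0.071 with GW3965 and 0.29 ± 0.071 with T0901317 on the log2 scale (adjusted p = 0.00045 and 0.0019), and that of ACAA2 grew by 0.30 ± 0.084 with T0901317 (0.0065). That is 1 and 2 of 8 members, beside 21.6% and 17.4% of the 23140 genes tested. The growth for CPT1A includes a fall with DMSO, from a mean of 100 CPM at 24 h to 88.5 at 48 h. Its mean went from 175 to 195 CPM with GW3965 and from 110 to 120 with T0901317. The T0901317 call of CPT1A was lost without DMSO replicate 1 of 24 h (0.24, adjusted p = 0.010), and that of ACAA2 without DMSO replicate 1, 2 or 3 of 24 h or 3 or 4 of 48 h, or T0901317 replicate 1, 3 or 4 of 24 h or 2 or 3 of 48 h (adjusted p up to 0.023). Scaling to total counts alone moved the median of all genes to 0.11 with T0901317, and the share of increases from 42.9 to 55.7% with it and from 56.5 to 29.3% with rosiglitazone. With rosiglitazone none of the 8 passed the threshold for a change between the times in edgeR or DESeq2 (2.45% of all genes in edgeR). Smaller changes could be missed, since 40% of simulated 1.5-fold time differences were recovered for this drug. Of the 8, 3 had an unadjusted p under 0.05 in edgeR, CPT2 and ACADM lower and HADHB higher at 48 h. The response of CPT1A to rosiglitazone moved by 0.02 (95% interval -0.13 to 0.16).

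With DMSO alone 4 of 8 members differed between the time points, where 38.6% of all genes did. ETFDH was higher at 48 h by 0.73 ± 0.10 and HADHA by 0.32 ± 0.054 on the log2 scale (adjusted p = 2.9e-07 and 6.2e-06), with no overlap of the 4 libraries each. HADHB was higher by 0.25 ± 0.078 (0.0096) and CPT1A lower by 0.18 ± 0.050 (0.0042). The CPT1A call was lost without DMSO replicate 1 or 2 of 24 h or 1 or 4 of 48 h (adjusted p up to 0.039), and the HADHB call without any 1 of 22 of the 32 libraries, all 8 of DMSO among them (adjusted p up to 0.040). Time in culture and any batch of the time points cannot be told apart.

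**Figure D3:**
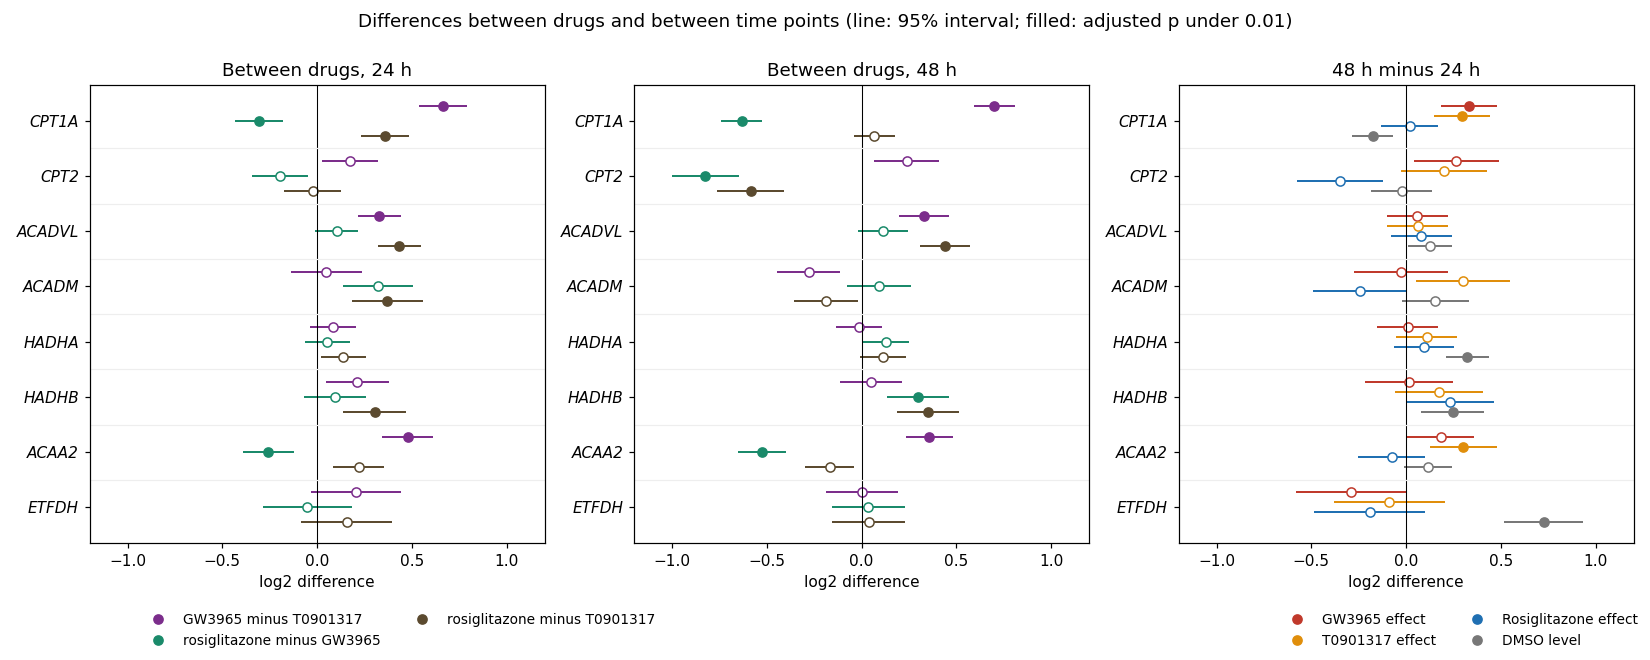
Log2 differences between drugs at 24 h and 48 h (left, middle) and between 48 h and 24 h (right), with 95% intervals, filled where the adjusted p was under 0.01. CPT1A differed most between GW3965 and T0901317, by 0.66 and 0.70, and ETFDH moved most with time under DMSO, by 0.73.

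Likeness of profiles over the 32 libraries is given here as Pearson's r of log2 CPM with 14507 genes of average log2 CPM of at least 1. The libraries share drugs and time points, so r describes likeness of pattern across the 8 groups. The 3 genes most like CPT1A were ACAA2 (r = 0.880), LPCAT3 (0.851) and POU3F1 (0.849). Those most like ACAA2 were NR1H3, the gene of LXRA (0.914), the transporter gene SLC22A3 (0.901) and CPT1A (0.880), and CPT2 ranked 29 for ACAA2 (0.810). HADHA ranked 2 for HADHB (0.897) and 9 for ETFDH (0.889), whereas CPT1A and HADHA had r = 0.157.

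Reads from some neighbours cannot be told apart from those of members, since the Nextera kit does not mark strand. RefSeq spans overlap for ACADVL with DLG4 and the microRNA gene MIR324, for CPT2 with CZIB, for HADHA with GAREM2, for ETFDH with PPID and LOC124900922, for CPT1A with LOC124902699 and for ACADM with DLSTP1. The row of MIR324 held 97 to 378 counts, 1.54 to 2.52% of those of ACADVL, and its log2 fold change with rosiglitazone at 24 h was 0.84 beside 0.62 for ACADVL. PPID, with 95.8 to 241% of the counts of ETFDH, changed by -0.01 between the DMSO groups of 24 and 48 h, where ETFDH changed by 0.73. CZIB, listed as C1orf123, had log2 fold changes between -0.06 and 0.19 in the 6 drug comparisons, with adjusted p of at least 0.13. DLG4, with 1.05 to 2.25% of the counts of ACADVL, passed with GW3965 at 48 h alone (0.79, edgeR adjusted p = 7.6e-05). GAREM2, listed as FAM59B, held 0.533 to 2.26% of the counts of HADHA. It passed at 48 h alone, with GW3965 (1.13, edgeR adjusted p = 1.4e-05) and T0901317 (0.84, 0.00042). The pseudogene row HADHAP1 held 0 to 13 counts, at most 0.237% of those of HADHA.

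Activation of fatty acids and carnitine transport around CPT1A were read from 13 further genes, 12 of them tested. At 24 h 4, 3 and 5 rose (1.86, 1.33 and 5.81% of all genes) and none fell (0.868, 0.119 and 6.52%) with GW3965, T0901317 and rosiglitazone. At 48 h 6, 7 and 6 rose (16.1, 14.0 and 12.3% of all genes) and 0, 0 and 1 fell (17.5, 16.1 and 13.1%). ACSL1, which activates long chains, had 44.0 CPM with DMSO and 133, 96.5 and 64.1 with GW3965, T0901317 and rosiglitazone at 24 h, and 41.2, 175, 147 and 59.3 at 48 h. In the same order it rose by 1.60, 1.13 and 0.54 on the log2 scale at 24 h, and by 2.08, 1.84 and 0.50 at 48 h (adjusted p of at most 4.9e-06). ACSL5 rose most with rosiglitazone, by 1.15 and 1.27, against 0.49 and 0.45 with GW3965, and ACSL3 rose with GW3965 by 1.10 and 0.87 and with T0901317 by 0.86 and 0.82. CROT, the peroxisomal carnitine octanoyltransferase, fell with rosiglitazone at 48 h from 3.05 to 0.942 CPM (log2 fold change -1.71, adjusted p = 7.9e-05).

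Of 16 other genes of mitochondrial oxidation, 15 were tested. With GW3965, T0901317 and rosiglitazone 1, 0 and 4 rose (1.86, 1.33 and 5.81% of all genes) and none fell (0.868, 0.119 and 6.52%) at 24 h. At 48 h 5, 3 and 4 rose (16.1, 14.0 and 12.3% of all genes) and 1, 1 and 3 fell (17.5, 16.1 and 13.1%). For the 0 of T0901317 the edgeR count at an unadjusted p under 0.05 was 1. ETFA, a subunit of the flavoprotein that hands electrons to ETFDH, rose with rosiglitazone by 0.57 and 0.87 on the log2 scale at 24 and 48 h (adjusted p = 6.9e-08 and 2.1e-10), while ETFDH did not pass. ACADS, the short-chain dehydrogenase, rose at 48 h with all 3 drugs, by 1.04, 0.72 and 0.72, HADH by 0.59, 0.65 and 0.38, and ACAD10 by 0.60 and 0.64 with the LXR agonists and fell by 0.40 with rosiglitazone. The median log2 fold change of the list at 48 h was 0.07, 0.03 and 0.15.

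Of 12 genes of peroxisomal oxidation 11 were tested. At 24 h 0, 1 and 4 rose (1.86, 1.33 and 5.81% of all genes) and 0, 0 and 1 fell (0.868, 0.119 and 6.52%) with GW3965, T0901317 and rosiglitazone. At 48 h 5, 8 and 5 rose (16.1, 14.0 and 12.3% of all genes) and 0, 0 and 3 fell (17.5, 16.1 and 13.1%). With GW3965 at 24 h, 3 genes lay higher and 1 lower at an unadjusted p under 0.05 in edgeR, and DESeq2 called 2 increases. PEX11A, which acts in peroxisome division, rose with rosiglitazone by 0.73 and 1.22. EHHADH, the bifunctional enzyme, rose with rosiglitazone by 0.81 at 24 h and with all 3 drugs at 48 h, by 0.86, 0.60 and 0.98. PECR, a peroxisomal enoyl-CoA reductase, was the gene that rose with T0901317 at 24 h, by 0.86, and it rose at 48 h by 0.69, 0.75 and 0.52. AMACR, the racemase of branched-chain acyl-CoA, fell with rosiglitazone by 0.34 and 0.69 and rose by 0.48 with T0901317 at 48 h.

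Ketone body metabolism was read from 6 genes, all of them tested. None passed the threshold at 24 h, where 1.86, 1.33 and 5.81% of all genes rose and 0.868, 0.119 and 6.52% fell with GW3965, T0901317 and rosiglitazone (edgeR). In the same order 2, 3 and 0 rose (16.1, 14.0 and 12.3% of all genes) and 0, 0 and 1 fell (17.5, 16.1 and 13.1%) at 48 h. At an unadjusted p under 0.05, 1, 1 and 1 lay higher and 0, 0 and 1 lower at 24 h, and 2 lay lower with rosiglitazone at 48 h. DESeq2 called 1 increase at 24 h, with rosiglitazone. BDH1, which reduces acetoacetate to 3-hydroxybutyrate, rose at 48 h by 0.98 with GW3965 and 0.84 with T0901317 (adjusted p = 3.3e-06 and 2.2e-05). AACS, which uses ketone bodies for lipid synthesis in the cytosol, rose by 0.70 and 0.60 (4.4e-08 and 3.1e-07). BDH2 rose by 0.72 with T0901317 (0.0053) and fell with rosiglitazone from 3.43 to 1.26 CPM at 48 h (-1.45, adjusted p = 4.2e-05). The median of the list was 0.12, 0.47 and -0.08 at 48 h.

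**Figure D4:**
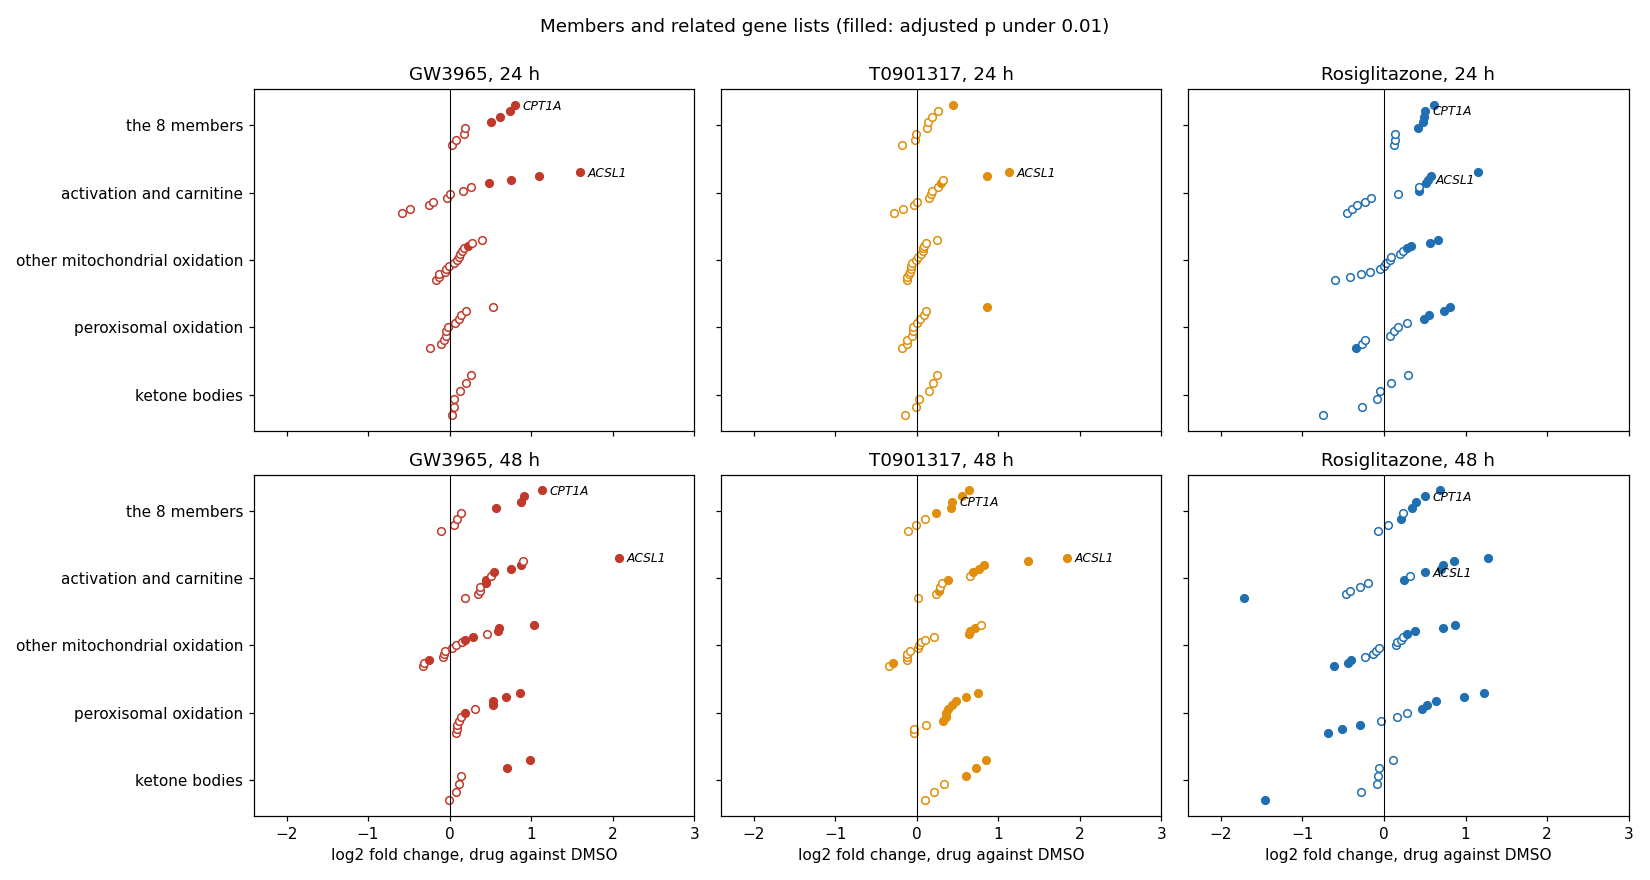
Log2 fold change against DMSO of each tested gene of the 8 members and 4 related lists (rows), by drug and time point, filled where the adjusted p was under 0.01. ACSL1 leads its list with the LXR agonists, up to 2.08, and the 6 ketone body genes show no filled point at 24 h.

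Among receptors and coactivators of the pathway, NR1H3 rose with every drug, by 1.10, 0.74 and 0.81 at 24 h and 1.65, 1.21 and 1.09 at 48 h. PPARD, a receptor that induces CPT1A and other oxidation genes, rose with rosiglitazone by 0.94 and 1.94 and fell at 48 h by 0.55 with GW3965 and by 0.74 with T0901317. PPARG itself, which fell by 0.50 with rosiglitazone at 24 h, fell at 48 h by 1.08, 0.71 and 0.47, PPARA rose by 0.58 and 0.62 with the LXR agonists, and the coactivator PPARGC1B rose by 1.21, 1.07 and 1.16.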

How the data were processed

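RNA was sequenced from 32 HT29 libraries, 4 for each of 8 groups. mRNA was selected with Dynabeads and libraries were made with a Nextera kit, which does not mark strand, and read as paired ends. The submitters' processing notes name TopHat, Cufflinks and hg19. The sources used here do not give the counting program, the annotation or the strand setting. The values are whole-number read counts per gene, deposited by the authors in 1 table per time point.

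Genes were filtered with filterByExpr, scaled by TMM and tested with edgeR 4.0.16 (quasi-likelihood test, R 4.3.3) over the 16 libraries of a time point. Changes between time points, and all CPM, came from a joint fit of the 32 libraries. The SE is the log2 fold change over the root of the F statistic, intervals are 95% intervals, p-values were adjusted by Benjamini-Hochberg over all genes, and the threshold was 0.01. Drug comparisons tested 21781 genes at 24 h and 22470 at 48 h, and the joint fit 23140. Scripts were tested on simulated data, in which edgeR recovered 71 to 84% of 1.5-fold changes between a drug and DMSO. For time differences with GW3965, T0901317 and rosiglitazone it recovered 56, 51 and 40% of 1.5-fold changes. Of 2-fold time differences it recovered 91, 89 and 89%.

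The alternatives were DESeq2 1.42.0, its size factors in edgeR, library size alone, no filter, the 2 groups alone, a replicate block, each library left out, and other thresholds. The members and related lists were chosen with earlier results of these data known. Besides the members, the text names at most 4 genes per list, those with the largest log2 fold change among genes that passed in a drug comparison and had an average log2 CPM of at least 1, with receptors of the regulator list, and any ketone body or treatment check gene. The 3 genes most like CPT1A and ACAA2 were taken by Pearson's r. Rows that overlap members were named from RefSeq spans after values were known. Within groups no pair of libraries agreed within sampling noise (smallest chi-square over degrees of freedom 3.50 over 48 pairs). In that measure replicate 1 of GW3965 at 24 h gave 29.0, 66.5 and 60.5 against the others of its group, whose own pairs gave 4.98 to 10.6. Replicates 1 and 3 of rosiglitazone at 48 h gave 48.0, and replicates 1 and 3 of T0901317 at 48 h 33.1. Some genes of the related lists are not reported here. ChIP-seq peaks, on hg19, were not analysed here, since the reference tables are on GRCh38.p14. Figures were drawn with matplotlib 3.10.9.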

Additional observations from a re-analysis of the deposited data

Results flagged for a closer look

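ACAA2 in DMSO replicate 4 at 48 h, at 48.9 CPM, lay apart from the other 3 libraries of its group, at 53.7 to 54.2 CPM. It was the only such value among 64 groups of 4 libraries (8 members in 8 groups), where chance gives about 1 in 20. The response of CPT1A differed between 48 and 24 h by 0.33 on the log2 scale with GW3965 (95% interval 0.19 to 0.48, edgeR adjusted p = 0.00045) and by 0.29 with T0901317 (0.15 to 0.44, adjusted p = 0.0019). That of ACAA2 differed by 0.30 with T0901317 (0.13 to 0.47, adjusted p = 0.0065). The DMSO libraries of each time point enter all of these differences, and DMSO replicate 4 of 48 h enters that of ACAA2, which was 0.26 without it (adjusted p = 0.022).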

How the results depend on the processing

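All 24 increases of members against DMSO kept their direction and threshold with the replicate block, DESeq2 and no filter. Deviations of same-numbered libraries had r of -0.10 to 0.17 at 24 h and -0.05 to 0.10 at 48 h, over 24 pairs each. At 24 h 2 of these pairs exceeded 0.1, against 3 of 72 pairs with different numbers. Such correlations cannot tell whether libraries of the same number shared a culture day or batch. The block changed 1 count, DMSO between time points, from 4 to 3 members. With a fold change of at least 1.5, the members passing were 1, 0 and 1 for rosiglitazone at 24 h, T0901317 at 24 h and T0901317 at 48 h, 1 for rosiglitazone at 48 h, 1 for GW3965 against T0901317 at each time, 0 and 2 for rosiglitazone against GW3965 at 24 and 48 h, 0 and 1 for rosiglitazone against T0901317, 1 for DMSO over time and 0 for the time differences of GW3965 and T0901317. With library size alone they were 2 each for DMSO over time, rosiglitazone at 48 h and rosiglitazone against T0901317 at 24 h. At an adjusted p under 0.05 they were 5 each for GW3965 and rosiglitazone against T0901317 at 48 h, 2 for T0901317 at 24 h (2 also in DESeq2) and 1 for the time difference of rosiglitazone. With only the 2 groups fitted, 1 differed between rosiglitazone and GW3965 at 24 h, and without the filter 1 in the time difference of T0901317. Leaving out 1 library gave 2 to 4 members for DMSO over time, 0 to 1 and 0 to 2 for the time differences of rosiglitazone and T0901317, 1 to 3 and 2 to 5 for rosiglitazone against GW3965 and T0901317 at 24 h, 3 to 4 for GW3965 against T0901317 at 48 h, and 4 to 5 each for T0901317 and rosiglitazone at 48 h. The causes were not tested.

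No result past the threshold changed sign. With library size alone the log2 values that did were CPT2 8.4e-05 in DMSO at 48 against 24 h, HADHB -0.0097 in GW3965 against DMSO at 24 h, ETFDH -0.080 and HADHB -0.032 in GW3965 against T0901317 at 48 h, ACADVL -0.023, CPT1A -0.083 and HADHA -0.0063 in the time difference of rosiglitazone, CPT2 -0.13 in rosiglitazone against DMSO at 48 h, ACADM -0.042, ACADVL -0.027, ETFDH -0.10 and HADHA -0.0096 in rosiglitazone against GW3965 at 48 h, CPT1A -0.15, ETFDH -0.18 and HADHA -0.11 in rosiglitazone against T0901317 at 48 h, HADHB 0.036 in T0901317 against DMSO at 48 h. HADHB with T0901317 at 48 h was also 0.0035 with DESeq2, 0.0036 with no low-count filter, 0.00075 with only the 2 groups compared, 0.0036 with size factors of DESeq2 in edgeR. Leaving out 1 library gave values of both signs for CPT2 -0.082 to 0.017 in DMSO at 48 against 24 h, ACADM -0.071 to 0.031, HADHA -0.023 to 0.055 and HADHB -0.039 to 0.088 in the time difference of GW3965, HADHB -0.033 to 0.086 in GW3965 against DMSO at 24 h, ACADM -0.020 to 0.12 in GW3965 against T0901317 at 24 h, ETFDH -0.050 to 0.079 and HADHA -0.034 to 0.031 in GW3965 against T0901317 at 48 h, CPT1A -0.018 to 0.066 in the time difference of rosiglitazone, CPT2 -0.032 to 0.12 in rosiglitazone against DMSO at 48 h, ETFDH -0.13 to 0.025 in rosiglitazone against GW3965 at 24 h, ETFDH -0.040 to 0.088 in rosiglitazone against GW3965 at 48 h, CPT2 -0.058 to 0.045 in rosiglitazone against T0901317 at 24 h, ETFDH -0.10 to 0.025 and HADHA -0.044 to 0.015 in T0901317 against DMSO at 24 h, HADHB -0.068 to 0.043 in T0901317 against DMSO at 48 h. Planned comparisons of promoter peaks were not run, because peaks and reference tables are on different builds. ETFDH had the fewest counts of the members, 122 to 534 per library.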
